A study of Arabidopsis thaliana with 9 samples.

Results

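The genes described here are 9 genes that drive the morning and daytime part of the *Arabidopsis thaliana* circadian clock: *CCA1* (AT2G46830), *LHY* (AT1G01060), *RVE4* (AT5G02840), *RVE6* (AT5G52660), *RVE8* (AT3G09600), *LNK1* (AT5G64170), *LNK2* (AT3G54500), *PRR9* (AT2G46790) and *PRR7* (AT5G02810). They were picked by gene identifier from a table of 33341 genes, of which 25717 had values, and the choice was made with earlier results of these data known. All 9 were among the 19454 genes that passed a filter on low values. Transcript levels came from messenger RNA of whole seedlings, 7 days old, grown at 20 °C under 8 h of light and 16 h of dark. The genotypes were *exg1-1*, a T-DNA insertion mutant of *EXG1* that the sample labels spell evg1-1, *rlp44-3*, a mutant of the receptor-like protein gene *RLP44*, and the wild type Col-0, which is also the background of both mutants. Each had 3 libraries. Each mutant is 1 allele. Each genotype was sampled at 1 age only, so a change in level and a change in the timing of a rhythm cannot be told apart. The labels and methods give neither the hour of collection nor whether it was the same for the 3 genotypes. A difference between genotypes in that hour therefore cannot be told apart from an effect of the mutation.

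The plant clock is a set of transcription factors that repress and activate one another in turn over the day. *CCA1* and *LHY* encode related MYB proteins that are most abundant around dawn and repress genes of later phases. *RVE4*, *RVE6* and *RVE8* encode proteins of the same MYB family that act as activators of afternoon and evening genes, and *LNK1* and *LNK2* encode coactivators that work with them. *PRR9* and *PRR7* encode pseudo-response regulators that follow each other in the morning and day and repress *CCA1* and *LHY*.

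The values deposited as counts were not counts, since 0 of them were whole within 1e-06 and the 3 columns of a genotype were multiples of one another over all genes, with a largest relative deviation of 6.0e-15. A gene therefore has 1 fitted value per genotype and no spread between replicates, so the genotypes are described without a test. *PRR7*, for example, stood at 2651, 3219 and 3308 fitted reads in the *exg1-1* columns, at 2362, 2332 and 2442 in the *rlp44-3* columns and at 1798, 1597 and 1834 in the Col-0 columns, and the differences within a genotype are those of library size alone. The 3 columns of a genotype were summed, put on a common scale by TMM, the trimmed mean of log ratios over all genes, and written as fitted CPM, reads per 1000000 reads of the Col-0 sum. Intervals in the text are 95% counting intervals, exact binomial intervals of the fitted reads of a genotype pair, and cover counting error only, so the error between seedling samples is larger by an unknown amount.

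Column totals lay between 10396228 and 12971468 fitted reads in *exg1-1*, between 11015026 and 11535985 in *rlp44-3* and between 8364383 and 9606982 in Col-0. *EXG1* was lower in *exg1-1* than in Col-0 (log2 difference −1.61) and *RLP44* was at 0.358 fitted reads per library in *rlp44-3*, against 34.0 in Col-0. Listed shoot and root markers were detected in every genotype, while the seed marker *CRC* stood at 0.185 fitted reads per library in *exg1-1*, against 25.7 in Col-0. The summed level of 6 seed markers was 3.55 fitted CPM in *exg1-1*, 3.14 in *rlp44-3* and 19.1 in Col-0, with all 6 lower in each mutant than in Col-0. All but *EM6* passed the filter only through Col-0, where they were high, so their shared direction is not independent of the filter. *EM6* had log2 differences of −0.63 in *exg1-1* and −0.78 in *rlp44-3* against Col-0. For 5 root markers the sums were 80.9, 89.1 and 96.2 fitted CPM in *exg1-1*, *rlp44-3* and Col-0, with all 5 lower in each mutant. In *rlp44-3* the counting intervals of *PIN2*, *COBL9*, *WER* and *CASP1* included 0, and in *exg1-1* that of *PIN2* did. For 3 shoot markers the sums were 24420, 24277 and 22335, with all 3 higher in each mutant. *PSAG*, at 0.02 in *exg1-1*, was lower there with library totals or upper-quartile scaling. Of all genes, 49.2% were higher than in Col-0 in *exg1-1*, and 50.1% were lower in *rlp44-3*. The part of the seed, root and shoot markers in the clock gene values was not tested, and in whole seedlings fewer cells of a type and less RNA per cell cannot be told apart.

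The bases before the gene start are shown for *CCA1*, *LHY*, *PRR9* and *PRR7*, since these 4 of the 9 genes carry a G-box (CACGTG), a motif bound by bHLH and bZIP transcription factors, in the 300 bases before their annotated start. A G-box was found there in 7.09% of 27443 protein-coding genes. The windows were read from RefSeq's TAIR10.1, 5′ to 3′ on the strand of the gene, and capitals mark the G-boxes and, in *CCA1*, a match to the binding site of TCP transcription factors, GGNCCCAC, which 1.18% of genes held in a window of this length.
CCA1, chr2:19245291-19245590, + strand: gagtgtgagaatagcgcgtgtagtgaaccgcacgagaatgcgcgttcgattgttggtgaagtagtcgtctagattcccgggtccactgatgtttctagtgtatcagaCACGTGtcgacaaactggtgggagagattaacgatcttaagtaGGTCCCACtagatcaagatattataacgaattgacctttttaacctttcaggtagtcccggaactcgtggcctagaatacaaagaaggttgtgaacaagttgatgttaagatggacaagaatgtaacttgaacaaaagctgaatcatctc
LHY, chr1:37872-38171, - strand: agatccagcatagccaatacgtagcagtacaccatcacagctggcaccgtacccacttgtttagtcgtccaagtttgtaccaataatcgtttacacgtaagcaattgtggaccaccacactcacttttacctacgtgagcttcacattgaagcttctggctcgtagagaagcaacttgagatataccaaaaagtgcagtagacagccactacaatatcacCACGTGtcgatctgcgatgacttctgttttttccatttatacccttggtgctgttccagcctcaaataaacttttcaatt
PRR9, chr2:19232307-19232606, + strand: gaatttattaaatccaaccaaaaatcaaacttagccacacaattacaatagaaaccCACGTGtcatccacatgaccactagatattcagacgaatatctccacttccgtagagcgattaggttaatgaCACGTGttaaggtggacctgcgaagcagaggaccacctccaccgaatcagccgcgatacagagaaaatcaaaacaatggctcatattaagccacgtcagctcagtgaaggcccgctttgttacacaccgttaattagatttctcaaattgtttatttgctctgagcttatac
PRR7, chr5:642031-642330, - strand: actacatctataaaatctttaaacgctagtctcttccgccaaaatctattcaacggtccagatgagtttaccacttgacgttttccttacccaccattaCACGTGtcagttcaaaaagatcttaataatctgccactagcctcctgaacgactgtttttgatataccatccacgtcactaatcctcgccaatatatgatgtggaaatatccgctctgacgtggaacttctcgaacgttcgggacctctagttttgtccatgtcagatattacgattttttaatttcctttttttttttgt

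The G-box lay 193 bases before the start of *CCA1*, 80 before that of *LHY* and 201 before that of *PRR7*, while *PRR9* had a pair of them, at 244 and 172 bases. *RVE8* also had a pair, but farther away, at 888 and 814 bases. The evening element (AAAATATCT), the motif through which CCA1, LHY and RVE8 act on evening genes, was in none of the 9 genes within 1000 bases on either strand, where 7.24% of protein-coding genes held it. Of 12 evening clock genes, 7 held it in the same window: *PRR5*, *TOC1*, *GI*, *ELF4*, *LUX*, *BOA* and *FKF1*. The related CCA1-binding site (AAAAATCT) was found within 1000 bases in 3 of the 9 genes, *LHY*, *RVE6* and *PRR9*, in 4 of the 12 evening genes and in 21.1% of all genes. A G-box within 300 bases was also held by 2 of the 12 evening genes, *LUX* and *BOA*, so it is not particular to the 9 genes. *RVE4*, *LNK1* and *LNK2* held none of the 4 motifs. A match is a run of letters, not a measured binding site.

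**Figure D1:**
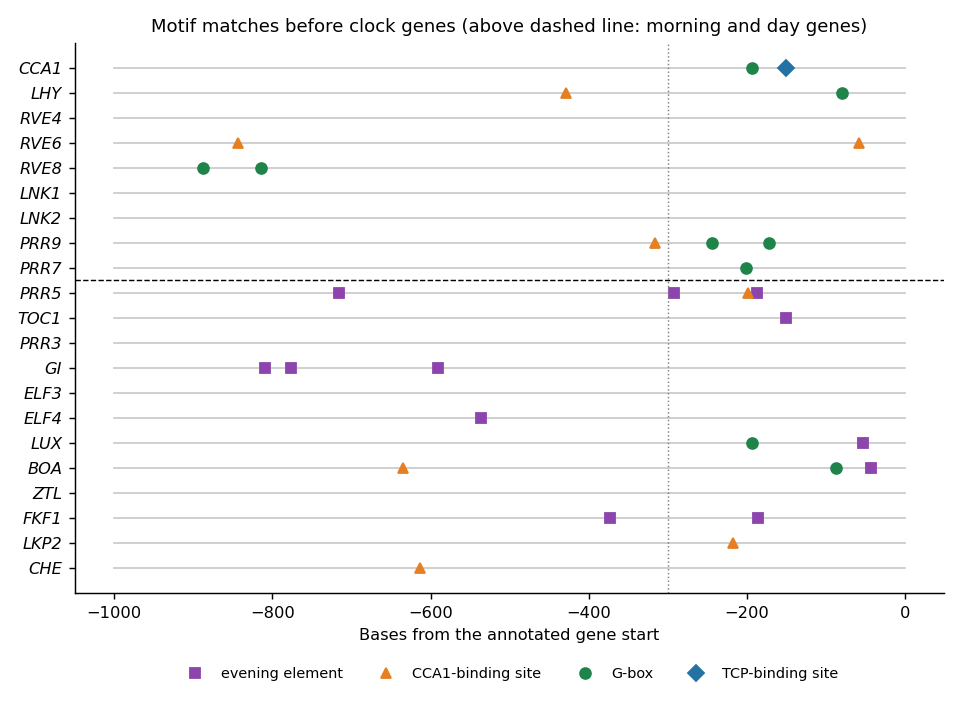
Motif matches on either strand in the 1000 bases before the annotated start of 9 morning and day genes (above the dashed line) and 12 evening genes, with bases from the start on the x axis, a symbol per motif and a dotted line at 300 bases. The G-boxes of *CCA1*, *LHY*, *PRR9* and *PRR7* lie between 244 and 80 bases before the start, and evening elements appear in 7 evening genes and in none of the 9.

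The 9 genes covered a wide range of levels, and their order was nearly the same in each genotype. Per kb of annotated exon, the highest level in *exg1-1* was that of *LNK2*, with 83.9 fitted CPM per kb, and the lowest that of *LHY*, with 2.75, a 30.6-fold range. In *rlp44-3* the range was 34.1-fold, between *PRR7* (65.1 fitted CPM per kb) and *LHY* (1.91), and in Col-0 it was 23.9-fold, between *PRR7* (59.1) and *LHY* (2.47). *RVE6*, *RVE8* and *LHY* held the last 3 places in every genotype. *LNK2* and *PRR7* held the first 2 places, and in Col-0 they were almost level, at 58.9 and 59.1 fitted CPM per kb. The place of neighbours this close cannot be ordered without replicate spread.

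**Figure D2:**
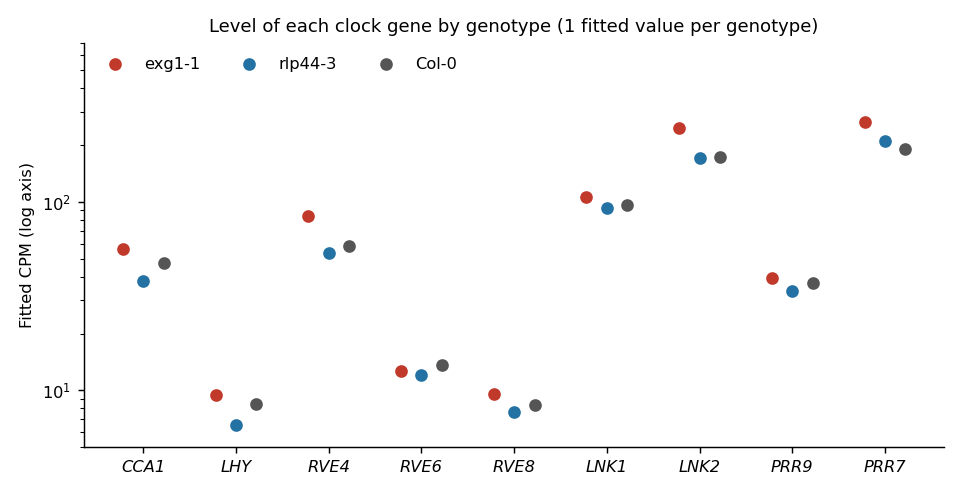
Fitted CPM (log axis) of the 9 clock genes in *exg1-1*, *rlp44-3* and Col-0, each point being 1 value fitted by the authors per genotype, drawn without an error bar because the table holds no replicate spread. The *exg1-1* point is the highest of the 3 for every gene except *RVE6*, and the *rlp44-3* point is the lowest for every gene except *PRR7*, although *LNK2* changes sides with library totals and without the filter on low values.

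The comparison of *exg1-1* with Col-0 asks how the transcriptome differs without full *EXG1* function. Of the 9 genes, 8 had a higher value in *exg1-1* than in Col-0, where 49.2% of the 19454 genes did. The exception was *RVE6*. A log2 difference of at least 0.322, the limit used here for counting, was reached upward by 3 genes, *RVE4*, *LNK2* and *PRR7*, against 9.23% of all genes, or 7.12% with scaling by library totals and 15.1% without the filter on low values, and downward by 0, against 13.1%, or 16.0% with library totals. The median log2 difference of the 9 genes was 0.20, from −0.11 to 0.53, beside a median of 0.00 over all genes. Since the genes were chosen with these differences known, the counts describe them and carry no test.

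In *rlp44-3* against Col-0 the direction was mostly the opposite. A lower value was seen for 8 of the 9 genes, where 50.1% of all genes were lower, and the exception was *PRR7*. With library totals, and without the filter on low values, *LNK2* was also higher. Here 2 genes, *CCA1* and *LHY*, were lower by at least that limit, against 8.2% of all genes, and 0 higher by it, against 6.2%. Under those 2 settings *CCA1*, at −0.31, did not reach the limit, which left 1 of the 9 genes past it. Without the filter, 13.8% of all genes were lower and 13.4% higher by the limit. The median log2 difference was −0.12, from −0.37 to 0.14, beside 0.00 over all genes. Both comparisons use the same Col-0 libraries, so neither is independent of the other.

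Set against each other, the mutants do not share that baseline. All 9 genes were higher in *exg1-1* than in *rlp44-3*, where 50.2% of all genes were, or 39.0% with library totals, and 5 of them, *CCA1*, *LHY*, *RVE4*, *LNK2* and *PRR7*, by at least 0.322, against 9.13% of all genes, or 6.72% with library totals and 14.9% without the filter. *PRR7*, at 0.33, was under the limit when scaled by upper quartiles (0.29) or by library totals (0.27), and *RVE8*, at 0.31, reached it without the filter (0.323), so the count ran from 4 to 6. None was lower by that limit, against 11.5% of all genes, or 15.5% with library totals and 17.6% without the filter. The median log2 difference was 0.33, from 0.07 for *RVE6* to 0.66 for *RVE4*, beside 0.00 over all genes. The counting interval lay above 0 for 8 of the 9 genes, *RVE6* being the exception, whereas it did so for 5 genes in *exg1-1* against Col-0. In *rlp44-3* against Col-0 it lay below 0 for 4 genes and above 0 for 1. The share of all genes with such intervals was not computed, so these counts do not set the 9 genes apart.

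**Figure D3:**
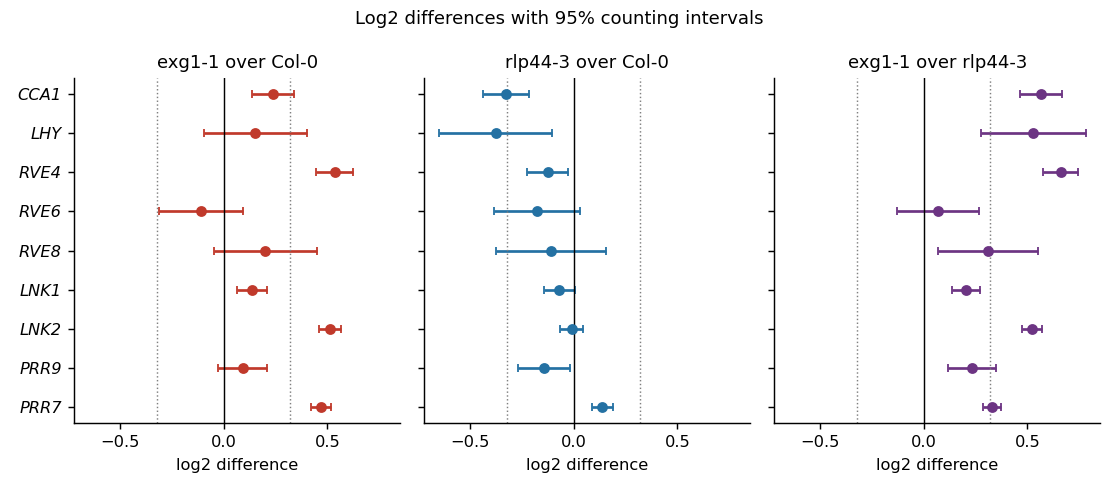
Log2 differences of the 9 genes for *exg1-1* over Col-0, *rlp44-3* over Col-0 and *exg1-1* over *rlp44-3*, with bars for 95% counting intervals and dotted lines at a log2 difference of 0.322 either way. *RVE4*, *LNK2* and *PRR7* lie past the line in the first panel, *CCA1* and *LHY* on the other side in the second, and all 9 points are above 0 in the third.

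*CCA1* and *LHY*, the dawn repressors, had their lowest values in *rlp44-3*. *CCA1* stood at 650 fitted reads per library in *exg1-1*, 429 in *rlp44-3* and 434 in Col-0, which after scaling were 56.2, 38.0 and 47.6 fitted CPM. Its log2 difference was 0.24 in *exg1-1* against Col-0 (counting interval 0.14 to 0.34) and −0.325 in *rlp44-3* against Col-0 (−0.44 to −0.21). *LHY* stood at 109, 73.8 and 77.1 fitted reads per library in *exg1-1*, *rlp44-3* and Col-0, or 9.39, 6.53 and 8.45 fitted CPM. Its log2 differences were close to those of *CCA1*, 0.15 in *exg1-1* and −0.37 in *rlp44-3*, with wider intervals of −0.09 to 0.40 and −0.65 to −0.10. Between the mutants, *CCA1* was 1.48-fold and *LHY* 1.44-fold higher in *exg1-1* than in *rlp44-3*. The ratio of *CCA1* to *LHY* reads, which does not depend on the scaling between genotypes, was 5.98 in *exg1-1*, 5.82 in *rlp44-3* and 5.63 in Col-0, so the pair kept a similar proportion.

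The 3 *RVE* genes differed among themselves. *RVE4* had the largest log2 difference of the 9 genes in *exg1-1* against Col-0, 0.53 (counting interval 0.45 to 0.62), a value above those of 96.3% of all genes. It stood at 973 fitted reads per library in *exg1-1*, 602 in *rlp44-3* and 529 in Col-0, or 84.1, 53.2 and 58.0 fitted CPM. *RVE8* stood at 110 fitted reads per library in *exg1-1*, 87.0 in *rlp44-3* and 75.7 in Col-0. Its log2 differences were 0.20 in *exg1-1* and −0.11 in *rlp44-3* against Col-0, and both counting intervals reached past 0. *RVE6* stood at 146, 136 and 124 fitted reads per library in *exg1-1*, *rlp44-3* and Col-0, or 12.6, 12.0 and 13.6 fitted CPM. It was the member with the lowest log2 difference in *exg1-1*, −0.11 (−0.31 to 0.10), and it was also lower in *rlp44-3*, at −0.18 (−0.38 to 0.03). The ratio of *RVE4* to *RVE6* reads was 6.68 in *exg1-1*, 4.44 in *rlp44-3* and 4.28 in Col-0, and that of *RVE4* to *RVE8* was 8.82, 6.92 and 6.99, so *RVE4* stood higher relative to both genes in *exg1-1* under any scaling.

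The coactivator genes also differed from each other. *LNK2* stood at 2843 fitted reads per library in *exg1-1*, 1936 in *rlp44-3* and 1572 in Col-0, or 246, 171 and 172 fitted CPM, so that *rlp44-3* and Col-0 were nearly level. Its log2 difference in *exg1-1* against Col-0 was 0.51 (0.46 to 0.56), and in *rlp44-3* it was −0.01 (−0.07 to 0.05), with a sign that turned positive with library totals and without the filter on low values. *LNK1* stood at 1230, 1043 and 882 fitted reads per library in *exg1-1*, *rlp44-3* and Col-0, or 106, 92.2 and 96.7 fitted CPM. Its log2 differences were smaller, 0.14 in *exg1-1* (0.06 to 0.21) and −0.07 in *rlp44-3*. The ratio of *LNK2* to *LNK1* reads was 2.31 in *exg1-1*, 1.86 in *rlp44-3* and 1.78 in Col-0. In the TAIR10.1 annotation *LNK1* overlaps 1 gene on the other strand and *LNK2* overlaps 2. The methods name a directional library kit, but neither labels nor methods say whether reads were counted by strand. The values of *LNK1* and *LNK2* may therefore hold reads of those genes or lack reads from the stretches that overlap.

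*PRR7* was the only one of the 9 genes with a higher value in *rlp44-3* than in Col-0. It stood at 264 fitted CPM in *exg1-1*, 210 in *rlp44-3* and 191 in Col-0, a log2 difference of 0.47 in *exg1-1* (0.42 to 0.52) and 0.14 in *rlp44-3* (0.09 to 0.19). *PRR9*, the earlier of the pair, stood at 456 fitted reads per library in *exg1-1*, 378 in *rlp44-3* and 337 in Col-0, or 39.4, 33.5 and 36.9 fitted CPM. Its log2 differences were 0.09 in *exg1-1* (−0.03 to 0.21) and −0.14 in *rlp44-3* (−0.27 to −0.02). The ratio of *PRR7* to *PRR9* reads was 6.71 in *exg1-1*, 6.29 in *rlp44-3* and 5.17 in Col-0. Set against the dawn gene that it represses, the ratio of *CCA1* to *PRR7* reads was 0.213 in *exg1-1* and 0.181 in *rlp44-3*, against 0.249 in Col-0, so *CCA1* was lower relative to *PRR7* in both mutants, whichever scaling is used.

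These 9 genes include neighbours on the chromosome. *PRR9* and *CCA1* lie on the same strand of chromosome 2 with 10411 bases and 3 genes between them, and *PRR7* and *RVE4* lie on opposite strands of chromosome 5 with 6617 bases between them. Between *PRR9* and *CCA1*, *PSI-P* had 14302 fitted reads per library in *exg1-1*, 13826 in *rlp44-3* and 11120 in Col-0, the most in that stretch, and log2 differences against Col-0 of 0.02 in *exg1-1* and 0.00 in *rlp44-3*. The zinc transporter gene *ZAT* had log2 differences of 0.15 in *exg1-1* and 0.20 in *rlp44-3*, and AT2G46810 of 0.30 and 0.05 in the same order. Between *PRR7* and *RVE4*, *RHL2* had log2 differences of −0.12 in *exg1-1* and 0.15 in *rlp44-3*, and AT5G02830 of 0.26 and 0.04. The last 2 genes overlap each other on opposite strands. A lncRNA gene and a tRNA gene between *PRR7* and *RVE4* had no value. Each of the 5 genes in between that had values showed a log2 difference between 0.00 and 0.20 in *rlp44-3*. There *PRR9*, *CCA1* and *RVE4* lay below 0, and *PRR7*, at 0.14, lay within the range of those 5. In *exg1-1* the 5 ran from −0.12 to 0.30, beside 0.09 for *PRR9*, 0.24 for *CCA1*, 0.47 for *PRR7* and 0.53 for *RVE4*. A shared effect of place on the chromosome was not tested.

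**Figure D4:**
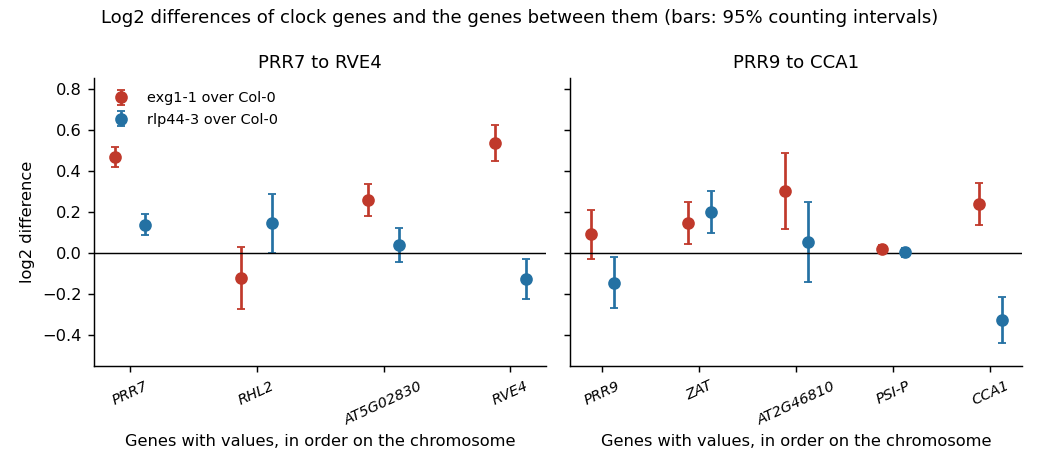
Log2 differences against Col-0 in *exg1-1* and *rlp44-3* for *PRR7*, *RVE4* and the genes with values between them (left) and for *PRR9*, *CCA1* and the genes between them (right), in chromosome order and with 95% counting intervals. *CCA1* has 0.24 in *exg1-1* and −0.32 in *rlp44-3*, while *PSI-P* beside it has 0.02 and 0.00.

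In *rlp44-3*, most evening clock genes lay on the other side of 0 from the morning and day genes. Of 12 listed evening genes, all 12 had a higher value in *exg1-1* than in Col-0, where 49.2% of all genes did, with a median log2 difference of 0.23. In *rlp44-3*, 10 were higher, where 49.9% of all genes were, and the median was 0.17 beside the −0.12 of the 9 genes. The counting intervals in *rlp44-3* included 0 for *TOC1*, *ELF3*, *ELF4*, *LKP2*, *PRR3*, *CHE* and *ZTL*. *PRR5*, a pseudo-response regulator that follows *PRR7*, stood at 452 fitted reads per library in *exg1-1*, 442 in *rlp44-3* and 263 in Col-0, a log2 difference of 0.44 in each mutant. *PRR3* and *BOA*, at 33.7 and 13.0 fitted reads per library in *exg1-1*, had 0.87 and 0.78 in *exg1-1* and 0.49 and 0.84 in *rlp44-3*. In Col-0 they stood at only 14.5 and 5.98 fitted reads per library. *BOA*, at 0.656 fitted CPM in Col-0, passed the filter of 0.908 CPM only through the mutants, so its higher values there are not independent of the filter. *LUX*, of the evening complex, and *FKF1*, a blue light receptor, had 0.43 and 0.38 in *exg1-1*, and *BOA*, *LUX* and *FKF1* each overlap a gene on the other strand. The lowest values were 0.10 for *CHE* in *exg1-1* and −0.05 for *ZTL* in *rlp44-3*. *TOC1*, the evening repressor of *CCA1*, had log2 differences of 0.21 in *exg1-1* and 0.05 in *rlp44-3*. The ratio of *CCA1* to *TOC1* reads was 1.88 in *exg1-1* and 1.42 in *rlp44-3*, against 1.84 in Col-0. Between the mutants, the 12 evening genes had a median log2 difference of 0.10 for *exg1-1* over *rlp44-3*, beside 0.33 for the 9 genes. Of the 12, *BOA* was the lowest (−0.07), and 1 gene, *PRR3* (0.38), was at least 0.322 higher, against 9.13% of all genes and 5 of the 9. With library totals *PRR3* (0.32) was just under the limit, so that 0 of the 12 passed it, and the median was 0.04. *FKF1*, at 0.317 in *rlp44-3* against Col-0, passed the limit with library totals and without the filter (0.327 and 0.328). The lists were set with earlier results known, so this contrast is a description.

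Most of the other *RVE* and *LNK* genes were also higher in *exg1-1*. This list, too, was set with earlier results known. Of 7 such genes, 6 were higher in *exg1-1* than in Col-0, where 49.2% of all genes were, with a median log2 difference of 0.52. Upward, 4 reached 0.322, against 9.23% of all genes: *RVE1* (0.64), *RVE3* (0.80), *RVE7* (0.65) and *LNK4* (0.52). *RVE3* was low, at 28.6 fitted reads per library in *exg1-1* against 12.9 in Col-0. The lowest was *RVE5*, at −0.21. *RVE1*, *LNK3* and *RVE5* each overlap a gene on the other strand, and *RVE3* and *LNK4* each overlap a gene on the same strand. For *exg1-1* over *rlp44-3*, *RVE3* (0.72), *RVE7* (0.58), *LNK4* (0.52) and *LNK3* (0.37) passed the limit upward, where 9.13% of all genes did. *LNK3* did not with library totals (0.31), and *RVE2* was lowest (−0.02). In *rlp44-3* against Col-0, 4 of the 7 were higher, where 49.9% of all genes were, and 3 lower, with a median of 0.06. There *LNK4* (−0.01) turned positive with library totals and without the filter, and the ends of the range were *RVE1* at 0.40 and *RVE5* at −0.40. A further 10 listed regulators of the clock, among them *LWD1* and *TTG1*, which act upstream of the morning genes, and *TCP22*, whose product activates *CCA1*, had medians of 0.04 in *exg1-1* and 0.01 in *rlp44-3* against Col-0. None of the 10 reached 0.322 either way in any comparison, except *TCP20* in *exg1-1* against Col-0 with library totals (−0.37) and upper quartiles (−0.36), under which the median in *exg1-1* was just below 0 (−0.01 under each). Of all genes, 9.23% were higher and 13.1% lower by that limit in *exg1-1* against Col-0, and 6.2% and 8.2% in *rlp44-3*. For *exg1-1* over *rlp44-3* these shares were 9.13% and 11.5%. With shares this small, the count does not set apart these 10 regulators. With TMM their log2 differences ran from −0.316 for *TCP20* to 0.29 for *TCP22*, both in *exg1-1* against Col-0. The same genes were at the ends in *rlp44-3* against Col-0, with −0.18 and 0.20, and *TCP20* (−0.13) and *TTG1* (0.14) for *exg1-1* over *rlp44-3*.

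**Figure D5:**
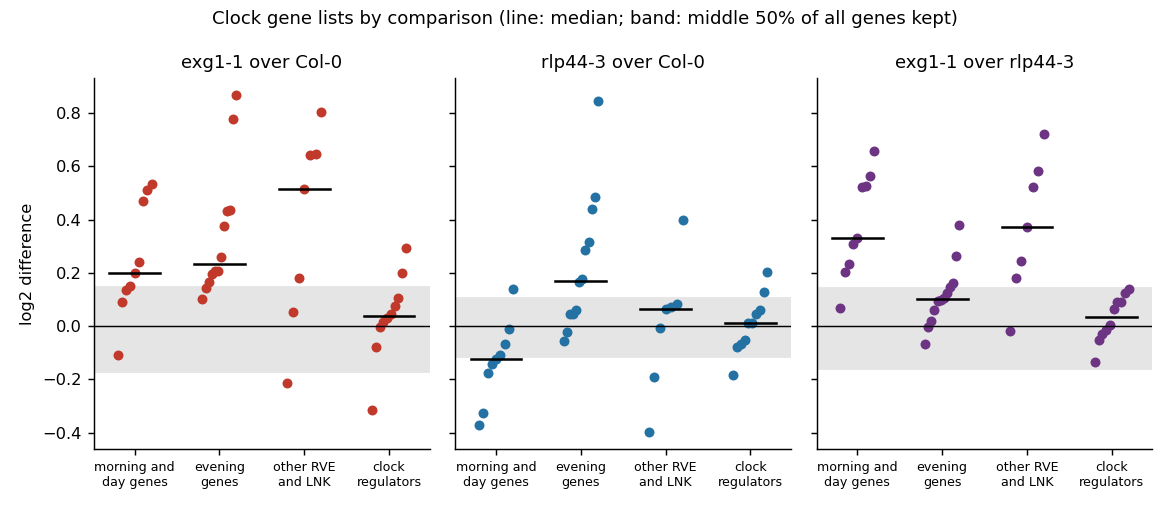
Log2 differences of the 9 morning and day genes, 12 evening genes, 7 other *RVE* and *LNK* genes and 10 clock regulators in each comparison, with a line at the median of each list and a grey band for the middle 50% of the 19454 genes. In *rlp44-3* over Col-0 the median is −0.12 for the morning and day genes and 0.17 for the evening genes.

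A list of 11 genes with daily rhythms under clock control had median log2 differences of 0.08 in *exg1-1* and −0.13 in *rlp44-3* against Col-0. Of the 11, 8 were higher in *exg1-1*, or 7 with library totals or upper-quartile scaling, where 49.2% of all genes were higher with TMM. In *rlp44-3* 6 were lower, where 50.1% of all genes were. It holds 6 genes of the *CDF* and *CONSTANS-LIKE* families, which act in the photoperiod pathway of flowering and were looked at together after their values were seen. All 6 were higher in *exg1-1* than in Col-0 and 5 were lower in *rlp44-3*, *CDF2* being the exception, while with library totals or upper-quartile scaling *CDF1* was lower in *exg1-1*. Because the 6 were picked by their values, their shared direction is a description only. *COL1* stood at 274 fitted reads per library in *exg1-1*, 139 in *rlp44-3* and 135 in Col-0, and was 0.94 higher on the log2 scale in *exg1-1* than in *rlp44-3*, the largest such difference of the list. *CDF5* had log2 differences of 0.53 in *exg1-1* and −0.13 in *rlp44-3* against Col-0, *CDF2* of 0.39 and 0.11, and *COL2* of 0.27 and −0.14. *CDF1* was at 0.02 in *exg1-1* and −0.323 in *rlp44-3*, and *CDF3* at 0.06 and −0.324, both under the limit when scaled by RLE, the median of ratios, or by library totals or without the filter. *COL1* and *CDF5* each overlap a gene on the other strand and *COL2* overlaps 2 genes. *GRP7* and *GRP8*, RNA-binding proteins with an evening rhythm, ran the other way, with log2 differences of −0.38 and −0.24 for *exg1-1* over *rlp44-3*. *COR15A*, a cold-induced gene that also responds to the clock, was lower in both mutants, with −2.16 in *exg1-1* and −1.26 in *rlp44-3*, and −0.90 for *exg1-1* over *rlp44-3*. *PIF4* and *PIF5* lay between 0.08 and 0.20 in both mutants against Col-0.

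With 3 genotype values per gene, likeness was measured as the distance between a gene's log2 differences against Col-0 and the median of the 9 genes, 0.20 in *exg1-1* and −0.12 in *rlp44-3*. Among 11344 genes with at least 100 fitted reads per library in Col-0, the nearest genes outside the 9 were AT2G46915, *NFU3* and *BIG*, at distances of 0.0035, 0.0073 and 0.0080. Within a distance of 0.1 lay 555 of these genes, only 1 of them a member, so nearness to this median is common. Whether clock genes lie near it more often than other genes was not tested. *LHY* and *RVE8*, with fewer than 100 fitted reads per library in Col-0, were not searched, although *RVE8*, at 0.20 and −0.11, was close to the median.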

How the data were processed

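Whole seedlings of *exg1-1*, *rlp44-3* and Col-0 were profiled by RNA sequencing, and libraries were grouped by genotype from their titles. Per the labels and methods, the authors cleaned reads by fastp, aligned them by HISAT2 on TAIR10, counted per gene by HTSeq and tested by DESeq2. Their versions, strand setting and handling of multi-mapping reads are not stated in labels or methods. The table the authors deposited as raw counts held fitted values, treated here as a score on the scale of reads with 1 value per gene and genotype, and 7624 of its 33341 rows were empty. No count test was therefore run. The 3 columns of a genotype outside the sample list were not used.

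The filter asked for 0.908 CPM, equal to 10 reads at the median column total, in every column of some genotype, and for 15 reads in all. TMM trimmed 30% of log ratios and 5% of levels at each end. It was also run on simulated data in which few genes changed, as likely upward as downward. That run does not show how well TMM scales the present genotypes. Relative to Col-0, log2 sizes were 0.34 (*exg1-1*) and 0.31 (*rlp44-3*). The members, the gene lists and the limit of 0.322 on the log2 scale were chosen with earlier results of these data known. The text names every listed clock gene past that limit in a comparison or at an end of its list, the targeted genes, and genes between neighbouring members. Motifs were searched in RefSeq's TAIR10.1, with promoter windows and exon lengths from its annotation, in which 25487 of 25717 genes were found. Its nuclear chromosomes are taken as those of TAIR10, and all coordinates are TAIR10.1. Calculations used Python 3.11.15, numpy 2.4.6, pandas 2.3.3, scipy 1.17.1 and matplotlib 3.10.9.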

Additional observations from a re-analysis of the deposited data

How the results depend on the processing

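Scaling was repeated by RLE, by upper quartiles and by library totals, and TMM was repeated with no filter on low values, with at least 10 reads in every library, and without organelle genes. All 9 genes kept the sign of their log2 difference under each of them in *exg1-1* against Col-0 and in *exg1-1* against *rlp44-3*, and 8 of 9 did in *rlp44-3* against Col-0, *LNK2* being the exception. With library totals and without the filter, 2 of the 9 genes were higher in *rlp44-3* than in Col-0 and 1, *LHY*, was lower by 0.322 or more. The smallest difference, that of *RVE6* between the mutants, ran from 0.01 to 0.08. Matched on the given strand only, 4 of the 12 evening genes held an evening element within 1000 bases in place of 7, and still 0 of the 9. No paired analysis was possible because the columns of a genotype hold 1 fitted value, and for the same reason edgeR, DESeq2 and the omission of single libraries were not run. Counting intervals reached at most 0.27 to either side of a log2 difference, among the 9 genes, and farther for listed genes with fewer reads, such as *BOA* (−0.07 to 1.66 in *exg1-1* against Col-0), and the spread between seedling samples is not in the table.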
